A study of Mus musculus with 14 samples.

Results

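The sodium pump genes described here are the beta subunits Atp1b1, Atp1b2 and Atp1b3 and the FXYD regulators Fxyd2, Fxyd6 and Fxyd7. Every probe set that the array's annotation gives to 1 of these 6 genes alone was taken, which made 14 probe sets among the 34945 single-gene probe sets of the array, and 6 of its 18193 genes. They were measured in 14 single tdTomato+ retinal ganglion cells (RGCs), 1 Affymetrix Mouse430_2 array for each cell, named cell 1 to cell 14 after the labels. The mice were adult double heterozygotes of the Parvalbumin-cre line (129P2/OlaHsd) and the Ai9 Tomato reporter (C57BL/6 and 129 SV) on a mixed background, and no cell received a treatment. The reporter marks a cell in which the parvalbumin gene Pvalb has driven Cre at any time. The methods of the study give another account of the strains, with the Cre line from a segregating background that includes C57BL/6 and the Ai9 reporter congenic on C57BL/6J, and the sources used here do not settle this. Brighter cells were easier to pick. All cells formed 1 group, no animal was named for any of them, and nothing in the design sets one group of cells against another. The values below therefore describe these 14 cells, with no test.

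The sodium pump, or Na,K-ATPase, moves sodium out of and potassium into the cell against their gradients at the cost of ATP, and in neurons it restores the gradients that action potentials and synaptic currents run down. An alpha subunit carries out the transport. A beta subunit, a glycoprotein that crosses the membrane once, folds the alpha subunit and brings it to the surface. FXYD proteins are small single-span proteins that bind the assembled pump and tune its affinity for ions. Alpha subunits other than that of Atp1a4 were not analysed here, so the results concern the partners of the alpha subunit.

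Detection required a MAS5 signal, the intensity that the array software gives a probe set, of 8 or more times the median of all probe sets on the same array. This threshold lay between 64.2 in cell 14 and 439.7 in cell 1. The cells had 4191 to 11910 probe sets above it, fewest in cells 5 and 13. Before hybridization the study had screened the libraries by PCR for the RGC gene Sncg and against rhodopsin and glutamine synthetase (Glul). Sncg and Glul are among the markers counted here, so these counts come from cells picked in part by them. Of 13 RGC markers measured, 9 to 13 were detected in each cell. Rod markers numbered 11 of 14 in cell 3 and 10 in cell 6, and 2 to 4 in each other cell. Of 12 Müller glia markers 0 to 6 were detected per cell, of 3 astrocyte markers 0 or 1, and of 5 oligodendrocyte markers 0 to 2.

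Most of these genes were found widely, and a few hardly at all. With each gene represented by the probe set of its highest mean signal, 4 of the 6 genes were detected in at least 7 cells, where the share over all genes was 24.8%. Atp1b1 and Fxyd7 were detected in all 14 cells, as were 2.64% of all genes, Atp1b2 in 12, Atp1b3 in 11 and Fxyd2 in 1. Fxyd6 was detected in none, as were 41.8% of all genes. The median was 11.5 cells per gene, against 1 cell over all genes. Counted by probe set, 7 of the 14 were detected in at least 7 cells (18.7% over all single-gene probe sets) and 5 in every cell (1.93%), while 6 were detected in 1 to 3 cells and 1 in none (46.3%). Thus 5 of the 6 genes and 13 of the 14 probe sets were detected in at least 1 cell, against 58.2% of all genes and 53.7% of all single-gene probe sets. Beside the 6 in 1 to 3 cells, 4140 of all 34945 single-gene probe sets were detected in 1 cell, 2318 in 2 and 1735 in 3. Each cell showed 6 to 10 of the 14 probe sets, most in cell 11 and fewest in cells 1 and 9, and 3 or 4 of the 6 genes. Each probe set has its own scale, and a higher signal for one gene than for another says nothing about which had more RNA.

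**Figure D1:**
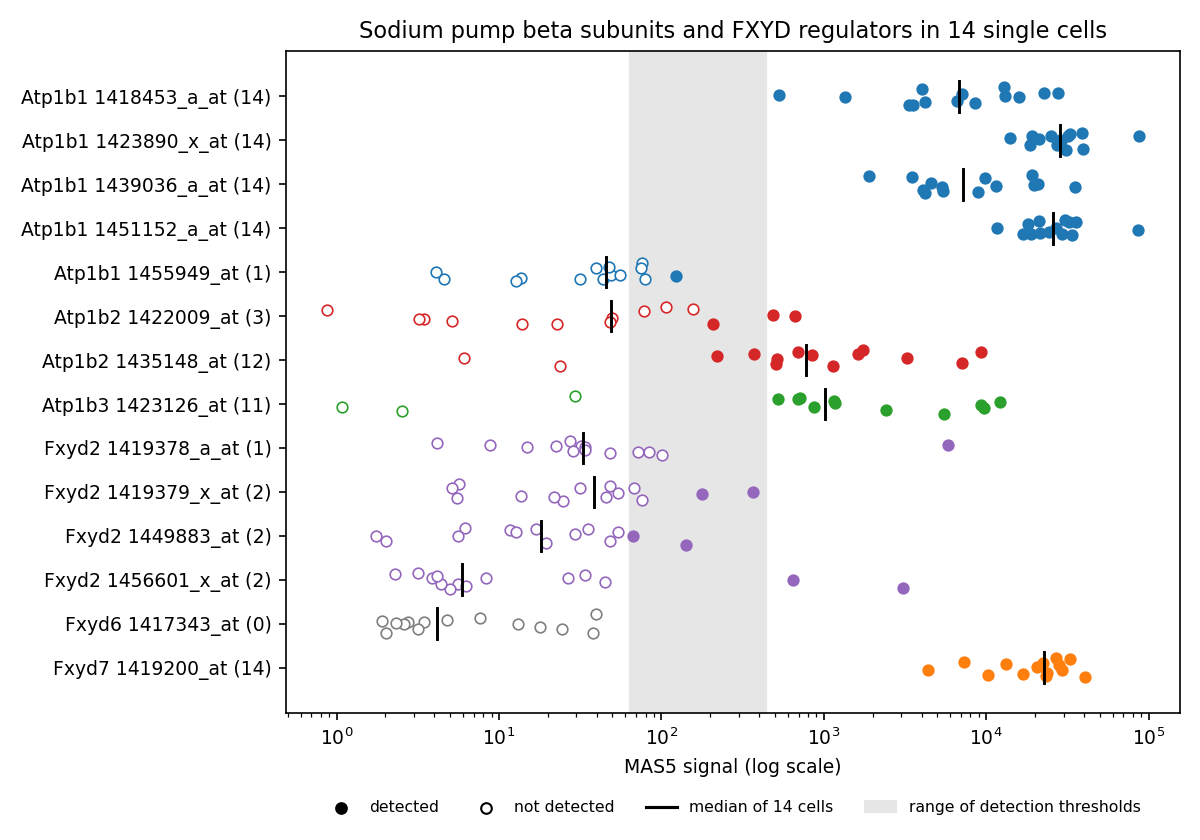
MAS5 signal (horizontal axis, log scale) of the 14 probe sets of the 6 genes, 1 point per cell, filled where the probe set was detected and open where it was not, with the count of detecting cells in brackets. Black bars are medians of 14 cells and the grey band spans the detection thresholds, from 64.2 to 439.7. Atp1b1 (4 of its 5 probe sets) and Fxyd7 lie above the band in every cell, whereas Fxyd6 lies below it in every cell.

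Atp1b1, Atp1b3 and Fxyd6 were detected in every cell, in 11 cells and in none. They were the only ones of the 6 genes with RefSeq promoters (GRCm38.p6) in the sources used here, and these promoters are shown. Each runs 5′ to 3′ on the strand of the gene, from 250 bases before an annotated start to 50 bases after it, and capitals mark matches on either strand to the CCAAT box (letters CCAAT), the GC box (letters GGGCGG), the TATA box (letters TATATA or, as a consensus, letters TATAAA, which can overlap each other) and the E-box (letters CACGTG). On the other strand a GC box reads CCGCCC and a CCAAT box ATTGG.
Atp1b1, chr1:164458306-164458605, minus strand: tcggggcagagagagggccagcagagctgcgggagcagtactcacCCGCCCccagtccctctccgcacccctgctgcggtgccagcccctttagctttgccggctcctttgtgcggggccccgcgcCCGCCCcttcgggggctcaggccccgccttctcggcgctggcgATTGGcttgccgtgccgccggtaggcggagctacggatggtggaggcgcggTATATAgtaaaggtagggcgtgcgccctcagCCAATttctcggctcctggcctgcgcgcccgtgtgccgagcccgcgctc
Atp1b3, chr9:96364382-96364681, minus strand: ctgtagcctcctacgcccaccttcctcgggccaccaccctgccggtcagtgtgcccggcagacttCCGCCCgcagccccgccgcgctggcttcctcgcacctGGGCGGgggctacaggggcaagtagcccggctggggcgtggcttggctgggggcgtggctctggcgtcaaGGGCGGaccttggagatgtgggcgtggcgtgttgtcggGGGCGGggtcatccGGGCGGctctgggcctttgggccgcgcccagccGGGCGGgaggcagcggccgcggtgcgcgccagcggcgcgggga
Fxyd6, chr9:45369935-45370234, plus strand: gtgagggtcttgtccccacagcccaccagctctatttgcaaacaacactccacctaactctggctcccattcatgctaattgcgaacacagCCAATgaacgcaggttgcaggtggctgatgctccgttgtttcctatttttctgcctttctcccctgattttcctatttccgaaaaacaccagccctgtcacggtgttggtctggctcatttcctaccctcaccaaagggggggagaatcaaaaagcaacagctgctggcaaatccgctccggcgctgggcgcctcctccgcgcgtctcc
In the Atp1b1 window TATATA lies 30 bases before the start, a CCAAT match begins 81 bases before it and another lies just after it, and GGGCGG occurs 2 times. The Atp1b3 window has 6 matches to GGGCGG, the letters of a GC box, and none to the others. In the Fxyd6 window CCAAT occurs 1 time, 159 bases before the start, and the other letters do not occur. Among 32851 promoters of the same length, a CCAAT box was found in 37.4%, a GC box in 35.7%, the TATA consensus in 13.6%, an E-box in 7.15% and the letters of the Atp1b1 TATA match in 5.67%. G and C made up 71.0% of the Atp1b1 window, 76.0% of that of Atp1b3 and 54.3% of that of Fxyd6, and the median over all promoters was 52.7%. These matches describe the sequence near an annotated start and do not show that a factor binds there. Another annotated start of Atp1b3 is not shown, and its window differs, with no GC box and 1 E-box.

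Atp1b1, the beta subunit most common in neurons, was present in every cell. Its probe set of highest mean signal, 1423890_x_at, read 14023 in cell 4 at the lowest, 28658 at the median and 87452 in cell 1 at the highest, with a mean log2 signal of 14.81 ± 0.63 (SD, n = 14). Apart from cell 1 the cells lay between 14023 and 39368, so that in MAS5 signal cell 1 stood clear of a rather even group. Divided by the detection threshold of its own array, the highest of all arrays, the signal of cell 1 was 199 and did not stand out. This ratio ran from 106 in cell 10 to 501 in cell 5. Among the 675 single-gene probe sets detected in all 14 cells, 5.93% had a smaller SD of log2 signal than 1423890_x_at. For the other widely detected probe sets of Atp1b1 this share was 9.33% (1451152_a_at), 54.8% (1439036_a_at) and 76.1% (1418453_a_at). The low spread thus holds for only some probe sets of the gene. The x in the name 1423890_x_at is the maker's mark for probes that can also match other transcripts. Each r of Atp1b1 with another gene below uses this probe set.

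The other probe sets of Atp1b1 gave differing pictures of the same gene. 1451152_a_at, which was designed on the same transcript record as 1423890_x_at, ran from 11719 in cell 4 to 86399 in cell 1 with a median of 25795, and followed it closely over the 14 cells (Pearson r = 0.98, Spearman rho = 0.94, on log2(signal + 32)). Without cell 1, the r was 0.95. 1418453_a_at ran from 530 in cell 6 through a median of 6840 to 27840 in cell 5, a span of 52.6-fold, and 1439036_a_at from 1897 in cell 12 through a median of 7211 to 34987 in cell 5, a span of 18.4-fold. The span of 1423890_x_at was 6.24-fold. In both wider-ranging probe sets cell 5 was thus the highest and cell 12 among the 2 lowest, and their r with each other was 0.67, against 0.32 to 0.42 with the first pair. Cell 6 fell to the lowest place in 1418453_a_at while it was the fifth lowest in 1423890_x_at, at 25018. The fifth probe set, 1455949_at, was near background everywhere: it read 124 in cell 8, just above the threshold of 115 there, and 4.11 to 79.3 elsewhere. Which of these probe sets follows the amount of Atp1b1 RNA best was not tested. All 4 widely detected probe sets had lower signals in cells with more detected probe sets, with r between -0.60 and -0.47 over the 14 cells, and all values of 1 cell share the scaling of its array.

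**Figure D2:**
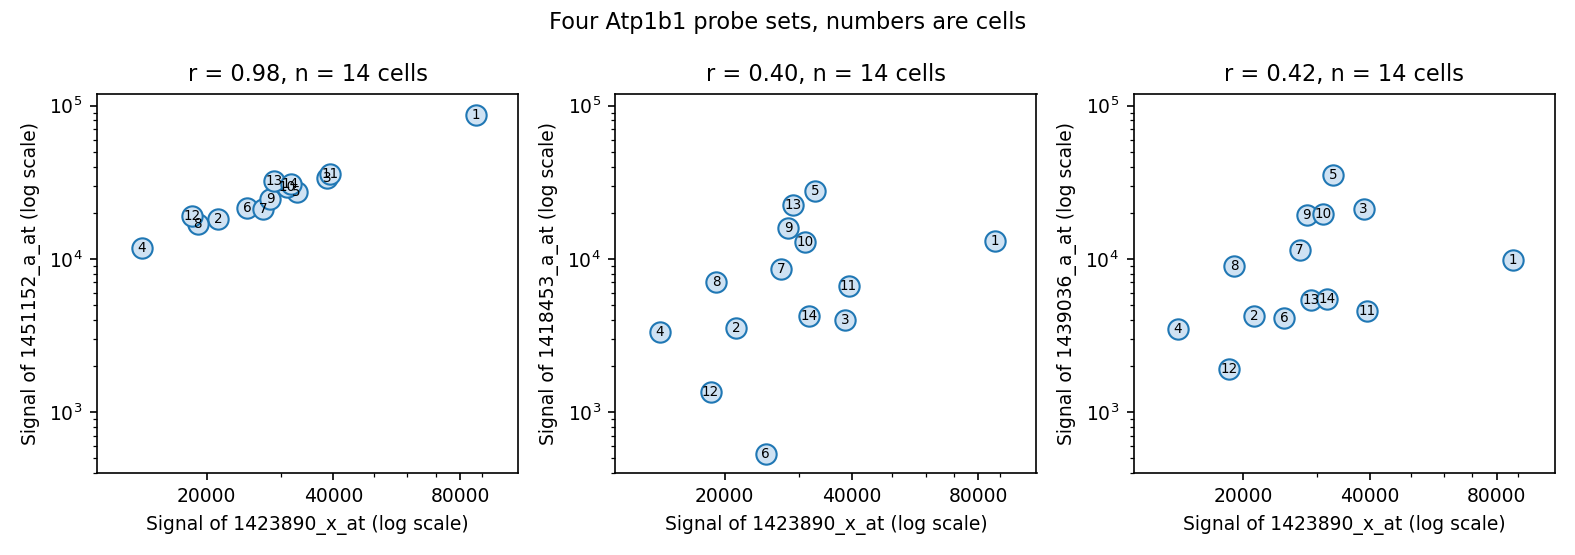
Signal of 3 Atp1b1 probe sets (vertical axes, log scale) against that of 1423890_x_at (horizontal axes, log scale), 1 circle per cell with the number of the cell. The pair in the left panel runs close to a line (r = 0.98), while in the other panels (r = 0.40 and 0.42) cells 5 and 14, at 32730 and 31678 on the horizontal axis, lie apart at 27840 and 4198 in the middle panel and at 34987 and 5455 in the right panel.

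Atp1b2, a beta subunit first described as an adhesion molecule on glia and also known from photoreceptors, was detected in 12 cells by 1435148_at. There it read 221 in cell 6 at the lowest and 9356 in cell 13 at the highest, with 7051 in cell 14 and 3263 in cell 5. Cells 1 and 9 read 23.6 and 6.05. The median over the 14 cells was 772, and the mean log2 signal was 9.28 ± 2.89 (SD, n = 14). The highest values were thus in cells 13, 14 and 5, the same 3 that had the lowest numbers of probe sets above threshold, and r with that number was -0.51. Signals reached 1000 in 6 of the 12 cells.

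The second probe set of Atp1b2 did not follow the first. 1422009_at was detected in cells 2, 3 and 4 only, at 661, 209 and 489, and read at most 157 elsewhere. In cells 13 and 14, where 1435148_at was highest, it read 5.12 and 0.87. All 3 cells were also detected by 1435148_at, and r between the probe sets was -0.23. Since Atp1b2 is known from glia and rods, the markers of these cells are given beside it. Cells 3 and 6, with 11 and 10 rod markers, read 1144 and 221 for 1435148_at, so that cell 6 was the lowest of the cells with detection. For 1422009_at they read 209 and 106, and in cell 6 this was just below the threshold of 113. Of the 12 Müller glia markers, Clu was found in 12 cells, Glul, which encodes glutamine synthetase, in 8, Dkk3 in 7 (up to 26921), Gpr37 in 5 (up to 7740) and Rlbp1, a retinoid-binding protein, in 4 (up to 4132). Slc1a3, Vim and Kcnj10 were found in 1 cell each, and Aqp4, Apoe, Sox9 and Hes1 in none. Of the 3 astrocyte markers, Aldh1l1 was found in 2 cells, S100b in 1 and Gfap in none. Cells 13 and 14 had 3 and 2 of the 12 Müller glia markers and cell 5 had none. Cells 4 and 6 had the most, 6 each, and cell 4 read 1624 for 1435148_at and 489 for 1422009_at. The part of glial or rod RNA in the Atp1b2 signals was not tested.

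Atp1b3, a beta subunit found in many tissues, was either clearly on or near background. Its only probe set, 1423126_at, passed the threshold in 11 cells, from 519 in cell 12 up to 12162 in cell 1, with cells 2, 9 and 11 at 9680, 9240 and 5527. In cells 3, 5 and 14 it read 1.08, 2.53 and 29.5. The median over the 14 cells was 1012 and the mean log2 signal 9.15 ± 4.22 (SD, n = 14). No cell lay between 29.5 and 519, although in single cells a transcript can be missed by chance. Among the 730 single-gene probe sets detected in 11 cells, 84.5% had a smaller SD. Its r with the number of detected probe sets was 0.47, of opposite sign to that of Atp1b2.

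By 1435148_at, Atp1b2 and Atp1b3 had a negative r over the 14 cells. Both were detected in 9 cells, Atp1b2 without Atp1b3 in cells 3, 5 and 14, and Atp1b3 without Atp1b2 in cells 1 and 9, so that each cell had at least 1 of them beside Atp1b1. Cell 1 had the highest Atp1b3 signal and cell 9 the third highest, at 12162 and 9240, while cell 13, with the highest Atp1b2 signal, read 695 for Atp1b3. Over the 14 cells r was -0.65 and rho -0.63, and r stayed between -0.71 and -0.58 when each cell was left out in turn. These values include cells 1, 3, 5, 9 and 14, where 1 of the 2 genes was near background. Whether r is negative over the 9 cells with both was not tested, and leaving out 1 cell at a time cannot show it. Of 6882 genes detected in at least 4 cells, 0.363% had a lower r with Atp1b3, and 4.30% had a lower r with Atp1b2. The part of cell quality in this relation was not tested beyond the 2 values of r with the number of detected probe sets, -0.51 and 0.47. With 1422009_at, the probe set of Atp1b2 detected in 3 cells, r with Atp1b3 was 0.16, so the negative r rests on 1 of the 2 probe sets of Atp1b2.

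**Figure D3:**
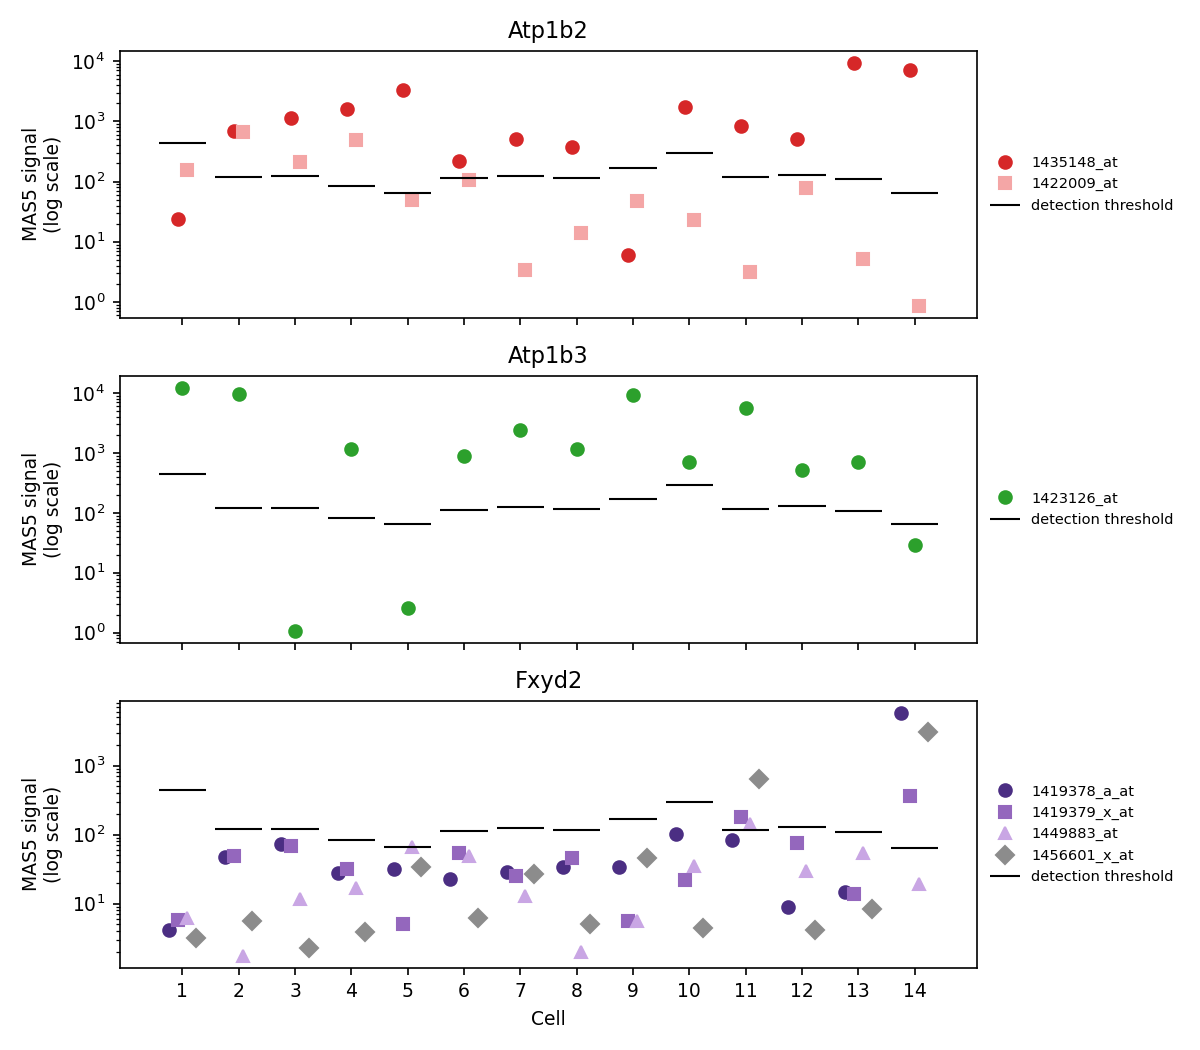
MAS5 signal (vertical axes, log scale) of the probe sets of Atp1b2, Atp1b3 and Fxyd2 in each of the 14 cells (horizontal axis), with the detection threshold of each array as a black line. Atp1b3 is near background in cells 3, 5 and 14, where 1435148_at of Atp1b2 is at 1144 to 7051, and Fxyd2 stands out in cell 14 and, with lower signals, in cell 11.

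Among the FXYD regulators, Fxyd7, which is known from the brain as a modulator of the pump in neurons, was found in every cell. 1419200_at, its only probe set, read 4367 in cell 8 and 7338 in cell 1 at the low end, 22853 at the median and 40491 in cell 5 at the high end, and the mean log2 signal was 14.17 ± 0.90 (SD, n = 14). The lowest value was far above the highest threshold of any array, 439.7, so no choice of threshold tried here removed a cell. Of the 675 probe sets detected in all cells, 31.1% had a smaller SD. Its r with Atp1b2 was 0.52, with Atp1b3 -0.42 and with Atp1b1 0.01. After quantile normalization of the arrays the first of these was 0.13 and the second -0.19. Without cell 1, which combined the highest Atp1b1 signal with the second lowest Fxyd7 signal, the r of Fxyd7 with Atp1b1 was 0.53.

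Fxyd2, the gamma subunit known best from the kidney, was a gene of few cells. The probe set with the highest mean signal, 1419378_a_at, was detected in cell 14 alone, at 5781, and read 4.15 to 101 elsewhere. 1456601_x_at was detected in cell 14 at 3079 and in cell 11 at 649, with at most 45.2 in the other 12 cells. 1419379_x_at was detected in the same cells, at 366 in cell 14 and 177 in cell 11. Thus 3 probe sets detected Fxyd2 in cell 14 and another combination of 3 detected it in cell 11. The fourth, 1449883_at, read 143 in cell 11 against a threshold of 118, only 19.4 in cell 14, and 66.6 in cell 5 against a threshold of 65.3. The detection in cell 5 rests on that value alone. In cell 11 the first probe set read 84.1, below the threshold, so a count by the first probe set leaves this cell out. The names of 2 of these probe sets carry an x, the maker's mark for probes that can also match other transcripts. Cell 14 had the highest ratio of 3′ to 5′ Gapdh control signal, 2.61 against 1.09 to 1.95 in the others, and cell 11 had 1.53. A high ratio means that the copies stop short of the 5′ end. Whether RNA quality bears on the Fxyd2 signal was not tested.

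Fxyd6, which lies next to Fxyd2 on chromosome 9 and is also known from the brain, was not detected by its only probe set. 1417343_at read between 1.92 and 39.7, with a median of 4.13, below the threshold of every array. One probe set that stays at background cannot show that the RNA was absent. Fxyd7 lies in another cluster on chromosome 7 with Fxyd5, Fxyd1 and Fxyd3. Of these neighbours, Fxyd5 was detected in cell 8 only, at 217, and Fxyd1 and Fxyd3 in no cell, with signals of at most 142 and 43.3.

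The remaining sodium pump genes were hardly detected. Of the 6 measured, Atp1a4 (an alpha subunit known from sperm), Atp1b4, Fxyd1, Fxyd3 and Fxyd4 were detected in no cell and Fxyd5 in 1. The proton-potassium pumps Atp4a, Atp4b and Atp12a, the closest relatives of the sodium pump, were likewise detected in none, with signals of at most 70.2. Each of these 8 undetected genes rests on 1 probe set.

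Genes that work beside the pump came next. Of 5 measured binding partners, Ank3 (ankyrin-G, which anchors membrane proteins at the axon initial segment) was detected in all 14 cells at 4556 to 27634. Ank2 and Nkain1, whose protein binds the beta1 subunit, were detected in 7 cells each, Nkain4 in 1 and Nkain2 in none. Nkain1 signals were highest in cells 10, 13 and 7, at 3123, 2516 and 2183. It passed the threshold with 115 and 131 in cells 4 and 6, whereas 135 in cell 9 did not pass. Among the calcium pumps, which are related ATPases that clear calcium from the cytosol, the reticulum pump Atp2a2 was detected in 14 cells, and of the plasma membrane pumps Atp2b2 in 14, Atp2b3 in 11 and Atp2b1 in 6. Atp2a1, Atp2a3 and Atp2b4 were in none.

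Transporters that run on the sodium or potassium gradient were all detected somewhere. The sodium-calcium-potassium exchanger Slc24a3 was in 14 cells at 1487 to 45453, and Slc24a2 in 9. Slc12a5, the potassium-chloride cotransporter that keeps chloride low in mature neurons, was in 13 cells at 2889 to 43816 and read 2.43 in cell 13. Slc12a2, which carries chloride inward, was in 3. The sodium-calcium exchanger Slc8a3 was in 11 cells, Slc8a1 in 6 and Slc8a2 in 1, where it read 135 in cell 12 against 214 in cell 10, which did not count. Over all these lists 10 of 28 measured genes reached 7 cells, where the share over all genes was 24.8%, with medians of 0 cells for the other sodium pump genes and for the proton-potassium pumps, 7 for binding partners, 6 for calcium pumps and 9 for transporters.

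**Figure D4:**
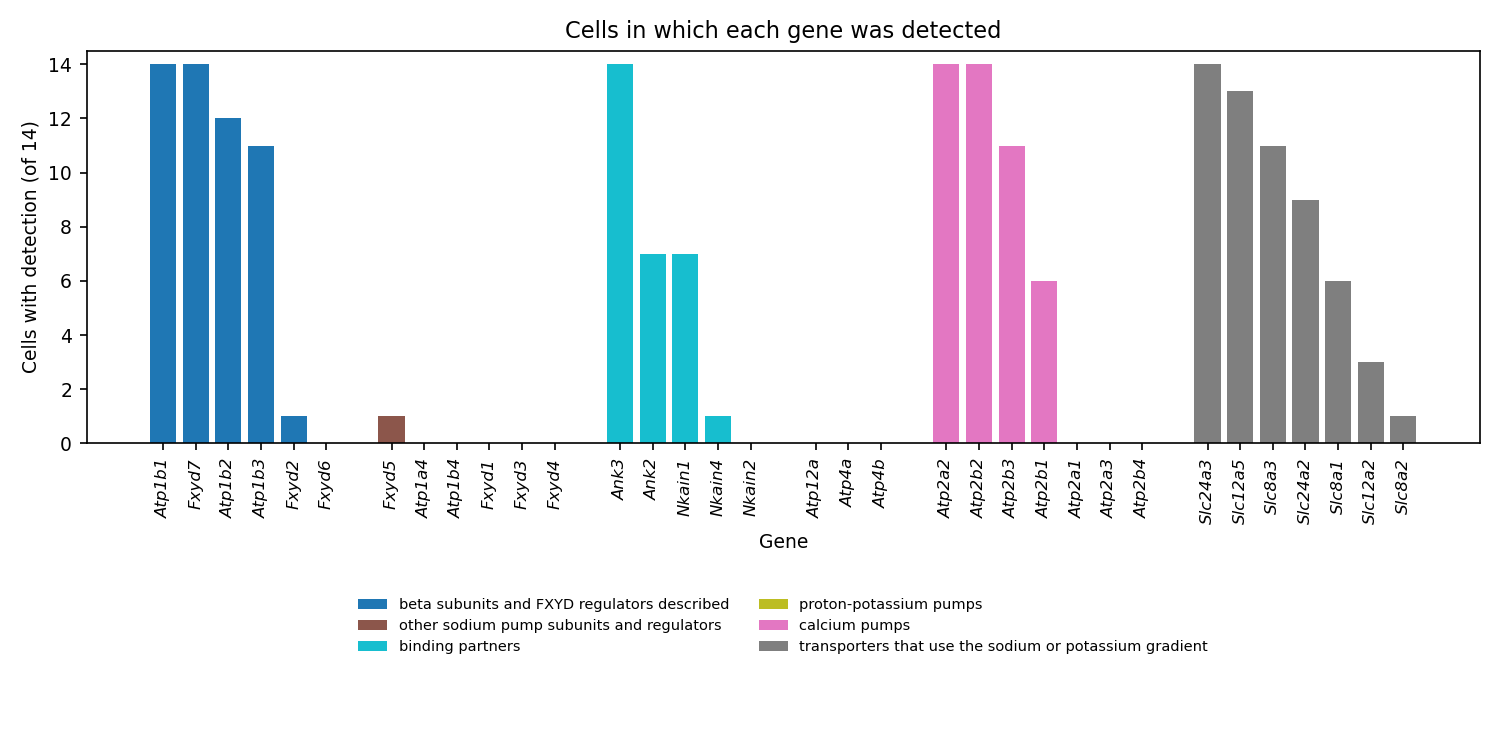
Number of cells, of 14, with detection (bars, vertical axis) for the 6 genes described and for 5 lists of related genes (colours, horizontal axis), each by 1 probe set per gene. Atp1b1 and Fxyd7 reach 14 cells together with Ank3, Atp2a2, Atp2b2 and Slc24a3, while genes without a bar, such as Fxyd6 and the proton-potassium pumps, were detected in none.

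For the 4 widespread genes, the genes whose signals followed them most closely over the 14 cells were ranked by Pearson r of log2(signal + 32) among 6882 genes. All signals of a cell share its library and the scaling of its array, and the best of so many genes over only 14 cells reach a high r easily. The 5 genes most like Atp1b1 were Tpbgl (r = 0.79), the RGC marker Sncg (0.79), 2310001K24Rik (0.74), Pigt of GPI anchor attachment (0.72) and Gnas, the stimulatory G protein alpha subunit (0.71). These leaned on cell 1: without it r was 0.19 for Pigt and 0.67 for Sncg, and Tpbgl, 2310001K24Rik and Pigt were detected in 4 cells each. Those most like Atp1b2 were Wbp2 (0.86), the microtubule protein Map4 (0.85), Sec31a of the COPII coat (0.85), Tom1l2 (0.85) and the fatty acid synthase Fasn (0.82), and the lowest r with 1 cell left out was 0.77 (Fasn). Those most like Atp1b3 were the kinase Jak1 (0.89), the proteasome subunit Psmb4 (0.87), the RNA-binding protein Hnrnpab (0.87), the ubiquitin-chain binding Ubqln1 (0.86) and the RNA-binding protein Rbms1 (0.84). These 5 were detected in 9 to 11 cells, with lowest signals of 1.01 to 26.9, so r includes cells where they were near background. Their rho ran from 0.67 (Psmb4) and 0.69 (Jak1) to 0.90 (Rbms1), and the lowest r with 1 cell left out was 0.82 (Ubqln1). Those most like Fxyd7 were Cuedc2 (0.85), Cope of the COPI coat (0.85), the immunophilin Fkbp1a (0.82), Arpc1a of the Arp2/3 complex (0.81) and the complex I subunit Ndufb10 (0.79), where leaving out cell 8 lowered r to between 0.59 and 0.78. The median r over all 6882 genes was -0.04 for Atp1b1, -0.20 for Atp1b2, 0.21 for Atp1b3 and -0.12 for Fxyd7. No other sodium pump gene was among the 5 of any list, and the closest pair, Atp1b2 and Fxyd7, held ranks 119 and 118 in each other's order. Among the related genes, the sodium-calcium exchanger Slc8a3 had an r of 0.68 with Atp1b3, with 97.8% of the 6882 genes below it, and the calcium pump Atp2b1 had an r of -0.74 with Atp1b2, with 1.34% below it. Ank3 had an r of 0.35 with Atp1b1 (93.7% below it) and 0.42 with Fxyd7 (96.4% below it). These genes were picked after all such values were seen.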

How the data were processed

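From 1 Affymetrix Mouse430_2 array for each single cell the authors obtained, by MAS5, an intensity on a linear scale for every probe set. The version of MAS5 was not given in the sources used here. RNA had been copied from an oligo-dT primer and amplified by 35 cycles of PCR, which favours 3′ ends and leaves rare transcripts to chance. MAS5 scales each array by 1 factor, and the 2% trimmed mean was 500.0 on every array, so values were not normalized further. Neither scanner files nor the calls of MAS5 were used.

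Of 45101 probe sets, 64 controls were left out. Gene names came from the annotation of the array, brought up to date through gene numbers (34741 of 34945 single-gene probe sets matched) with RefSeq GRCm38.p6, which also gave neighbours and promoters. Detection meant at least 8 times the array median. The probe set of highest mean log2 signal stood for a gene. Means and SDs are of log2 signals over 14 cells, and correlations are of log2(signal + 32), as descriptions with no p. An SD describes the spread between cells, and its precision is limited by the number of arrays. Named genes were the 6 genes, the related and marker lists, and the 5 genes with the highest r with each of the 6 genes detected in at least 4 cells. The genes and lists were chosen with earlier results of these data known. Alternatives were 4 and 16 times the median, a signal of 1000, the highest of 27 control probe sets for bacterial transcripts (hybridisation spike-ins left out), other ways to combine probe sets, other scalings and pseudocounts (1 and 128), and cells left out. The steps were tested on simulated data. Python 3.11.15, numpy 2.4.6, pandas 2.3.3 and scipy 1.17.1 were used.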

Additional observations from a re-analysis of the deposited data

How the results depend on the processing

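The counts of cells for Atp1b1, Fxyd7 and Fxyd6 changed under no threshold or way of combining probe sets. At a fixed signal of 1000, Atp1b2 was in 6 cells and Atp1b3 in 7, and the median over the 6 genes was 6.5 cells in place of 11.5, with 3 genes in at least 7 cells. Fxyd2 was in 3 cells at 4 times the median or by any of its probe sets, in 2 by their mean and in 4 against the bacterial controls. With the mean of its probe sets Atp1b2 was in 8 cells. The median SD of the 4 widespread genes was 1.89 and became 2.35 when signals were divided by the array median, where that of Fxyd7 was 1.33. Quantile normalization took r of Atp1b2 with Fxyd7 to 0.13 and of Atp1b3 with Fxyd7 to -0.19. The median r over their 6 pairs was -0.12, and -0.26 to -0.06 when each cell was left out. Without cell 1, r of Atp1b1 with Atp1b2 was 0.19 in place of -0.24, and after quantile normalization it was -0.61. Quantile normalization also took r of Atp1b1 with Atp1b3 from 0.08 to 0.33. With the other probe set of Atp1b2, a choice made after seeing the data, r with Atp1b3 was 0.16 in place of -0.65. The causes were not tested. No paired analysis was possible because the cells formed 1 group. Signals near background limit what can be said of Fxyd2 and Fxyd6.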
